A study of Mus musculus with 8 samples.

Results

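The disease-associated microglia (DAM) genes examined here are 36 genes, from Apoe, Trem2 and Clec7a to Igf1 and Atp6v0d2, taken from a list of gene names that was drawn up with earlier results of these data known, and all 36 were found among the 55291 genes counted. RNA came from the whole lumbar spinal cord of 8 male SOD1G93A mice on a C57BL/6J background, a model of amyotrophic lateral sclerosis (ALS) that carries a mutant human SOD1 transgene. In 4 of them, called Ager-deleted here, the genotype was Ager fl/fl Cx3cr1 Cre/+ (E1776, E5231, E5248, E5568), and in 4 Cre controls it was Ager +/+ Cx3cr1 Cre/+ (E5386, E5642, E6578, E6732). Values of single mice are given below in this order. Every mouse therefore carried SOD1G93A and 1 Cx3cr1 allele replaced by a tamoxifen-dependent Cre, and every mouse was given 5 daily injections of 0.2 μg tamoxifen at 12 weeks of age as the labels state it, so that both groups share the loss of 1 Cx3cr1 allele. The study's methods give the same dose, whose unit could not be checked here, and place the injections a few days later. The labels give the age at harvest as 120 days, whereas the study's text places the cords at the humane endpoint. Cre acts in cells that express Cx3cr1, which include microglia and macrophages of the meninges and vessels. Ager encodes RAGE, the receptor for advanced glycation end products, and the question was whether its loss from microglia alters the state of these cells in the diseased cord.

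Microglia near dying neurons, plaques or damaged myelin leave their homeostatic state, lower genes such as P2ry12 and raise a set of phagocytic, lysosomal and lipid-handling genes. Part of that shift depends on TREM2, a surface receptor for lipids that signals through the adaptor TYROBP, and APOE is both a ligand of TREM2 and a product of the responding cells. CLEC7A, ITGAX (CD11c), CST7, LPL, SPP1 and GPNMB are commonly used to recognise the state in the brain and in the SOD1G93A spinal cord.

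The start regions of 4 of the genes are shown because they place letters typical of microglial regulators next to genes described below. RefSeq start sites on GRCm38.p6 were matched for 26 of the 36 genes, and the 250 bases before the start were searched on both strands. PU.1, an ETS factor of the macrophage lineage, binds sites that contain GAGGAAG. For AP-1, a dimer of FOS and JUN proteins, TGANTCA was searched with N as any base. That is wider than its usual TGAGTCA or TGACTCA and takes in TGAATCA, the run found in Trem2. The letters GAGGAAG stood in 8 of the 26 genes, or 30.8%, against 12.0% of 27025 genes, and TGANTCA stood in 8 of the 26, or 30.8%, against 7.82% of all genes. A second spelling of the PU.1 site, GGAAGT, also stood in 8 of the 26, but in 22.2% of all genes. The letters TCACGTG, bound by MITF and TFE factors, stood in 0 of the 26 and 3.58% of all genes, TCATGTG in 2 of the 26 (7.69%) and 3.72%, and an NF-κB motif in 0 of the 26 and 1.36%. These letters were settled on after further spellings had been counted, so the shares are a description. The sequences run 5′ to 3′ with GAGGAAG or TGANTCA, on either strand, in capitals. The 2 capital runs of Trem2 are GAGGAAG on the opposite strand and TGANTCA, Itgax has 1 TGANTCA, Cd68 has 2, and Spp1 has GAGGAAG before the first of its 2 listed starts:
Trem2, chr17:48346151-48346400, plus strand: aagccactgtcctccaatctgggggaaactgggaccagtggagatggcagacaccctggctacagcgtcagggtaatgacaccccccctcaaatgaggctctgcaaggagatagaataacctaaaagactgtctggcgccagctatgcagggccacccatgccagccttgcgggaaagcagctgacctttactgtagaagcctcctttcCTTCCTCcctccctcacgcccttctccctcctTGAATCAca
Itgax, chr7:128129300-128129549, plus strand: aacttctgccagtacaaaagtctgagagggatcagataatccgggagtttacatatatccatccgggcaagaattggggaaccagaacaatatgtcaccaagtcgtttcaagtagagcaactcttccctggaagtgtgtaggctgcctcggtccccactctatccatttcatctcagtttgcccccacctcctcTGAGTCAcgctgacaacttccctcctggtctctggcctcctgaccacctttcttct
Cd68, chr11:69666171-69666420, minus strand: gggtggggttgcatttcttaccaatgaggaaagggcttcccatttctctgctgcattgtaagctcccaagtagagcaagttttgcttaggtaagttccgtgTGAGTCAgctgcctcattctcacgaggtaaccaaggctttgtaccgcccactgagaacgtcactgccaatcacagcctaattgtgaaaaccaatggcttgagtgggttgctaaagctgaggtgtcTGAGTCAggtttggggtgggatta
Spp1, chr5:104434861-104435110, plus strand: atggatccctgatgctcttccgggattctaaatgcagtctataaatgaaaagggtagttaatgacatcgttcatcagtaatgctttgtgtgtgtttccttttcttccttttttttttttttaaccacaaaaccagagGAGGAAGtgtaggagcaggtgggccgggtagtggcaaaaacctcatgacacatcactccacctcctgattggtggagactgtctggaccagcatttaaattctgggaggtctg
Such matches are letters in a window and are not evidence of binding.

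Total counts on genes ranged from 31148047 to 40324897 per mouse. Ager had 0.889 to 1.51 CPM (counts scaled to the TMM-adjusted library size) in the Ager-deleted mice and 1.53 to 2.41 CPM in the Cre controls. The groups did not overlap, and the log2 fold change of Ager-deleted over Cre control was −0.81 (SE 0.215; edgeR exact test, adjusted p = 0.252). The whole cord holds other cells that use the gene, and reads outside the deleted part are still counted. Markers of skeletal muscle, a tissue outside the cord, were high in controls E5386 and E5642. The 18 markers summed to 1274 CPM in E5386 and 1904 CPM in E5642 against 76.8 to 108 CPM in the other 6 mice. The 15 pan-microglial markers, all of them detected, spread more widely in the Ager-deleted mice. They summed to 2457 to 4558 CPM there and to 3284 to 3855 CPM in the controls.

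None of the 36 DAM genes differed between the genotypes at an adjusted p under 0.05 in edgeR's exact test, in which 0.0719% of the 19470 genes tested did. All 36 genes passed the filter on low counts. The annotated span, introns included, overlapped another gene on the same strand for 3 (Spp1, Ank and Lilrb4a) and on the opposite strand for 12. Whether exons overlap was not checked, so those levels may be uncertain. On the opposite strand this is because the strand setting of the counting was not given. At an unadjusted p under 0.05 there was 1 DAM gene, Lilrb4a, against 4.26% of all genes, and the quasi-likelihood test also called none of the 36 (0.00514% of all genes). DESeq2 called 1, again Lilrb4a, against 0.128% of the 21046 genes to which it gave an adjusted p. The median log2 fold change over the 36 genes was −0.03, against 0.01 over all genes, with 24 of them (66.7%, against 48.0% of all genes) lower and 12 higher in the Ager-deleted mice. That count rested on single mice, being 32 lower without E5231 and 13 lower without E5248. Individual values ran from −0.49 for Atp6v0d2 to 0.13 for Mmp12. In whole cord RNA, fewer cells of a type and less RNA per cell cannot be told apart.

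**Figure D1:**
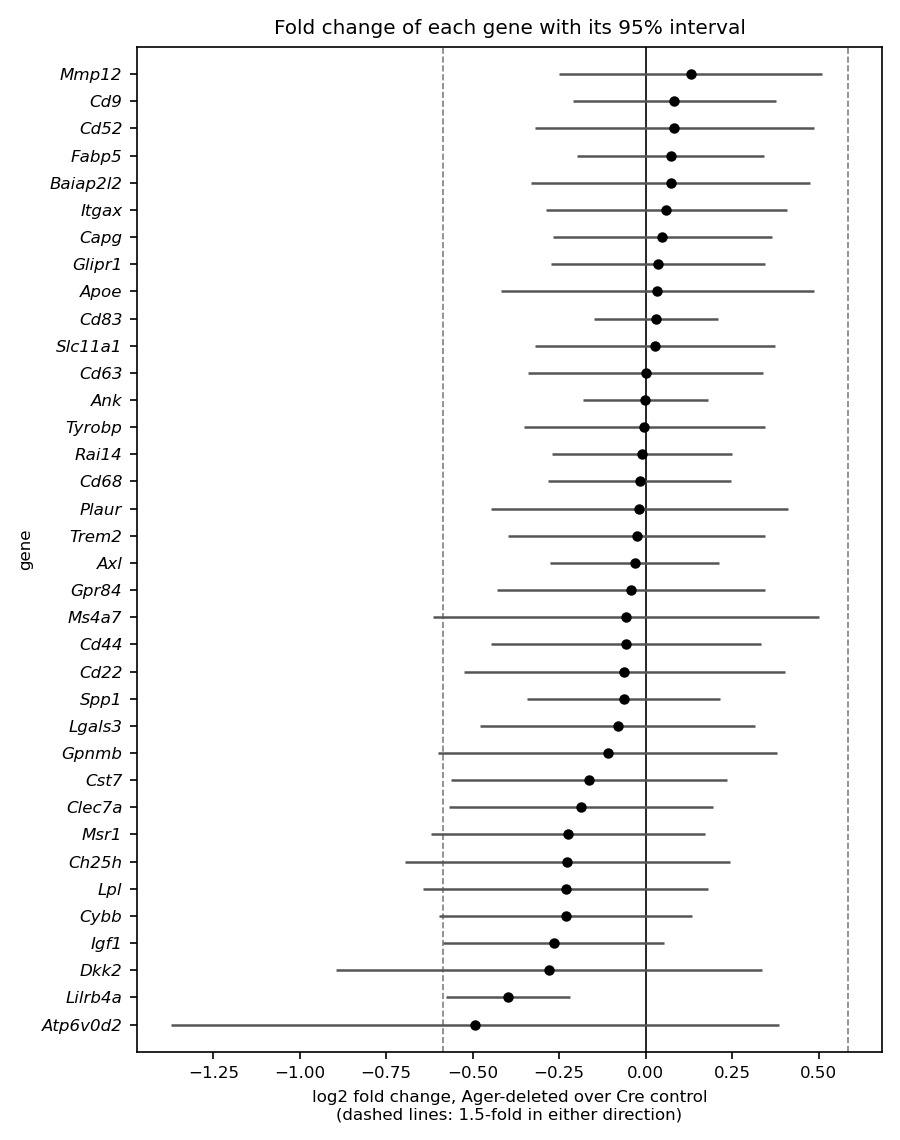
Log2 fold change of each of the 36 genes, Ager-deleted over Cre control (x axis), with genes on the y axis in order of that value. Points are estimates, horizontal lines are 95% intervals from the quasi-likelihood fit and dashed lines mark a 1.5-fold difference. The interval of Lilrb4a is the only one that leaves out 0, which 1308 of the 19470 genes tested also did.

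How large a difference these 8 mice leave possible is given by the intervals. The 95% interval lay wholly within 1.5-fold in either direction for 27 of the 36 genes (75.0%, against 72.0% of all genes). It lay within 2-fold for 35 of the 36, against 17656 of the 19470 genes tested. Atp6v0d2 was the exception, with an interval from −1.37 to 0.39 on the log2 scale. The median SE of the log2 fold change was 0.169 for the DAM genes and 0.117 for all genes.

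Among the receptors of the TREM2 axis and the lipid-handling genes (8 members), 6 were lower and 2 higher in the Ager-deleted mice and none passed the test. Trem2, the lipid receptor, had 155, 185, 93.0 and 130 CPM in the Ager-deleted mice and 149, 148, 142 and 136 CPM in the controls. The 4 controls lay inside the range of the Ager-deleted mice, and the log2 fold change was −0.03 (95% interval −0.40 to 0.35; exact test, adjusted p = 1). Tyrobp, its signalling adaptor, had 182, 223, 125 and 147 CPM in the Ager-deleted mice and 181, 173, 177 and 147 CPM in the controls. E5231 was again the highest and E5248 the lowest mouse, and the group means, 169 ± 43.0 and 170 ± 15.2 CPM (SD, n = 4), were nearly equal.

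Apoe, which encodes the lipid carrier apolipoprotein E and is also made by astrocytes, had 8409, 8827, 4401 and 6148 CPM in the Ager-deleted mice and 6601, 7403, 6409 and 6748 CPM in the controls. The lowest and highest values of all 8 mice both belonged to Ager-deleted mice, 2.01-fold apart, while the controls spanned 1.16-fold. Lpl, the lipase that releases fatty acids from lipoproteins, had 144, 138, 117 and 113 CPM in the Ager-deleted mice and 212, 139, 102 and 148 CPM in the controls. Control E5386 stood above every other mouse for Lpl, and adipocyte markers, which Lpl accompanies in fat, summed to 142 CPM in that cord and to at most 6.98 CPM in the other 7. Their part in the Lpl value was not tested. The log2 fold change of Lpl was −0.23 (SE 0.185) with all mice and −0.03 without E5386. Axl, a receptor kinase used in the uptake of dying cells, spanned 279 to 291 CPM in the controls and 226 to 321 CPM in the Ager-deleted mice. Fabp5, a fatty acid carrier, the cholesterol hydroxylase Ch25h and the scavenger receptor Msr1 had log2 fold changes of 0.07, −0.23 and −0.22.

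**Figure D2:**
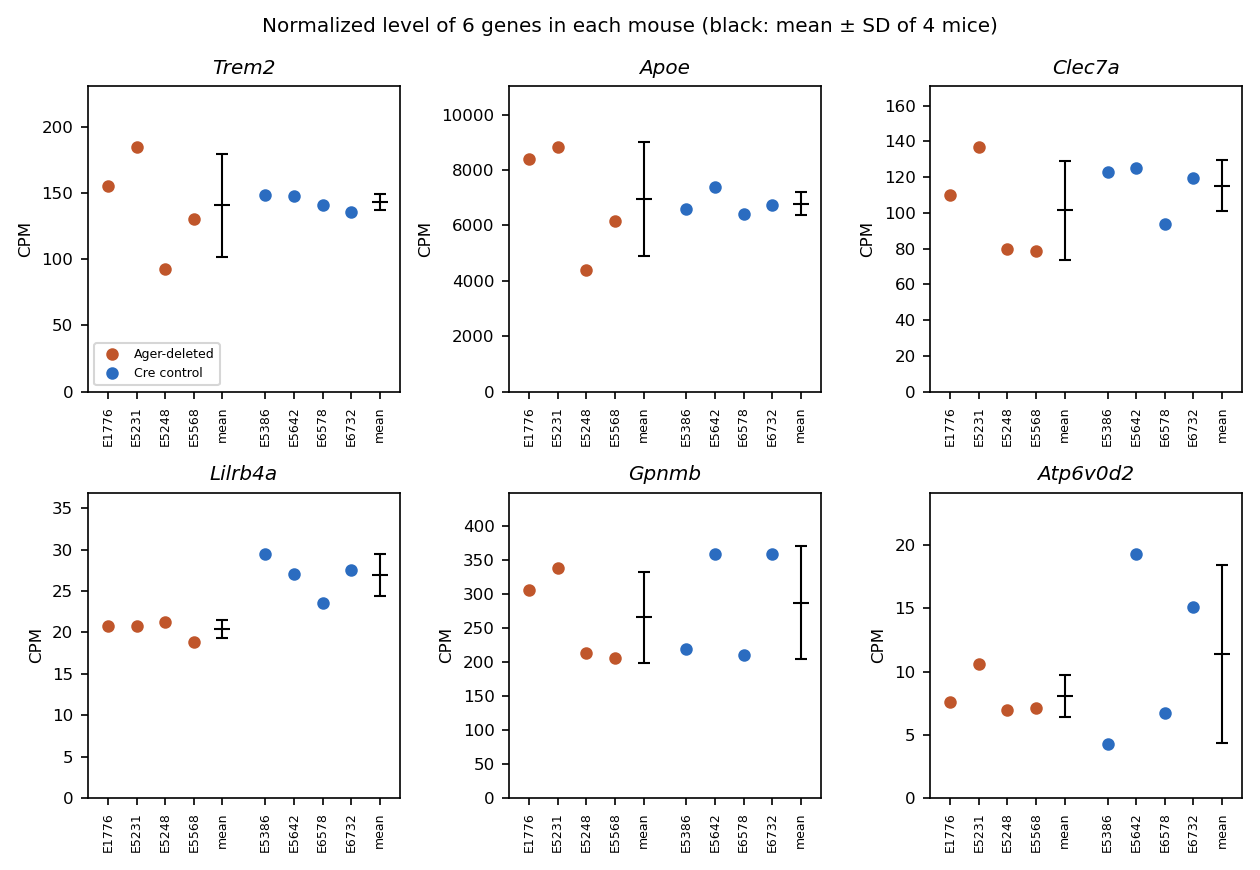
TMM-normalized CPM (y axis, linear from 0) of Trem2, Apoe, Clec7a, Lilrb4a, Gpnmb and Atp6v0d2 in each mouse (x axis), with the mean ± SD of the 4 mice of each genotype in black. The genotypes are apart for Lilrb4a and overlap for the other 5 genes.

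Of the 10 other surface receptors, 7 were lower and 3 higher. Lilrb4a, an inhibitory immune receptor of the LILRB family, was the one DAM gene whose genotypes did not overlap (1.91% of all genes were lower without overlap and 3.88% did not overlap in either direction). Lilrb4a had 20.8, 20.8, 21.3 and 18.9 CPM in the Ager-deleted mice and 29.5, 27.1, 23.5 and 27.6 CPM in the controls. The highest Ager-deleted mouse was thus below the lowest control, E6578. Its log2 fold change was −0.40 (SE 0.080, 95% interval −0.58 to −0.22), or 0.759-fold, and the exact test of edgeR gave p = 0.000223, adjusted p = 0.0965. The exact permutation test over the 70 assignments of the mice gave p = 0.0286, the smallest it can give. Any gene whose genotypes do not overlap gets this p, so it restates the lack of overlap. Adjusted over all genes tested it was 0.737.

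The Lilrb4a call turned on the method. DESeq2 gave an adjusted p of 0.0251 and the quasi-likelihood test one of 0.705. Without E6578, the lowest control, the exact test gave an adjusted p of 0.00575 at a log2 fold change of −0.46. Without each of the other mice in turn, the exact test gave an adjusted p from 0.111 (without E5248) to 0.641 (without E5568). With common and tagwise dispersions it gave 0.241. Without both muscle-marked controls, E5386 and E5642, the exact test gave 0.862 at a log2 fold change of −0.33. Leaving out E5231 and E5248 gave 0.863 at −0.43. With the skeletal muscle mean as a covariate, the quasi-likelihood test gave 0.999 at −0.32. Lilrb4a (ENSMUSG00000112148, chr10:51490956-51496611, plus strand, GRCm38) has a nearly identical neighbour, Lilr4b, between which reads can be divided in either way, so its level is uncertain. Lilr4b had 5.82 to 9.73 CPM in the Ager-deleted mice and 8.01 to 10.8 CPM in the controls, which overlap, at a log2 fold change of −0.34 (SE 0.159, exact test, adjusted p = 1). With the counts of both genes added, the log2 fold change was −0.38 and the adjusted p 0.0662. The gene also overlaps the annotated Gm49339 on the same strand and Gm40645 on the other.

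Clec7a encodes the β-glucan receptor dectin-1, a protein widely stained to find DAM. Its level was 110, 137, 79.5 and 78.8 CPM in the Ager-deleted mice and 123, 125, 93.9 and 119 CPM in the controls. Mice E5248 and E5568 were below all controls, E1776 lay among the controls and E5231 above them. The log2 fold change was −0.19 (SE 0.172, 95% interval −0.57 to 0.20; exact test, adjusted p = 1), so a Clec7a level up to 1.15-fold higher or down to 0.674-fold in the Ager-deleted cord is within the interval. Itgax, the integrin chain CD11c, had 112, 89.0, 72.7 and 71.4 CPM in the Ager-deleted mice and 92.4, 85.1, 63.6 and 90.1 CPM in the controls. Its order of mice differed from that of Trem2 in that E1776 was highest, and the genotypes overlapped (log2 fold change 0.06, SE 0.157).

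The remaining receptors had log2 fold changes between −0.06 and 0.08, and none had a p under 0.05. They were the hyaluronan receptor Cd44, the sialic acid-binding Cd22, the urokinase receptor Plaur, the fatty acid receptor Gpr84, the four-span membrane gene Ms4a7, the surface glycopeptide Cd52 and Cd83, an immunoglobulin family member. Cd83 varied least among the mice of these, between 80.1 and 99.6 CPM, and Gpr84, at 2.09 to 3.501 CPM, was the least counted.

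In the group of lysosomal, tetraspanin and phagocyte membrane genes (9 members), 6 were lower and 3 higher. Cd68, a glycoprotein of late endosomes and lysosomes that marks phagocytes, had 129, 144, 94.4 and 105 CPM in the Ager-deleted mice and 123, 125, 110 and 120 CPM in the controls. E1776 and E5231 were above all controls and E5248 and E5568 below them, and the means were 118 ± 22.6 and 119 ± 6.70 CPM (SD, n = 4). Cst7, the cysteine protease inhibitor cystatin F, had 88.5, 102, 52.7 and 66.7 CPM in the Ager-deleted mice and 92.2, 87.7, 95.05 and 72.9 CPM in the controls. Here too E5231 was highest and E5248 lowest, with a log2 fold change of −0.16 (SE 0.180).

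Gpnmb and Atp6v0d2 were divided within the controls rather than between genotypes. The Ager-deleted mice were also divided for Gpnmb, 1.64-fold apart against 1.71-fold in the controls. Gpnmb, a transmembrane glycoprotein of lysosome-rich phagocytes, had 306, 338, 212 and 206 CPM in the Ager-deleted mice and 220, 359, 210 and 358 CPM in the controls. Atp6v0d2, a subunit of the vacuolar proton pump, had 7.59, 10.6, 6.998 and 7.13 CPM in the Ager-deleted mice and 4.27, 19.3, 6.76 and 15.1 CPM in the controls. Controls E5642 and E6732 were high and E5386 and E6578 low for both genes, and for Atp6v0d2 the controls were 4.53-fold apart. Its log2 fold change, −0.49 (SE 0.396; exact test, adjusted p = 1), was −0.12 without E5642 and −0.77 without E5386.

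Cybb, the catalytic subunit of the phagocyte NADPH oxidase, had 43.4, 58.7, 34.0 and 37.5 CPM in the Ager-deleted mice and 45.6, 57.7, 43.3 and 57.2 CPM in the controls. The ranges overlapped through E1776 and E5231, and the log2 fold change was −0.23 (SE 0.165). The tetraspanins Cd9 and Cd63, the phagosomal metal transporter Slc11a1 and the membrane transporter Ank had log2 fold changes of 0.08, 0.00015, 0.03 and −0.0020. The interval of Ank, −0.18 to 0.18, was among the narrowest.

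Of the 5 secreted and matrix genes, 4 were lower and 1, the elastase Mmp12, higher. Spp1, which encodes the secreted phosphoprotein osteopontin and is also made by motor neurons, had 482, 527, 389 and 341 CPM in the Ager-deleted mice and 465, 453, 427 and 474 CPM in the controls. The controls lay inside the range of the Ager-deleted mice, with a log2 fold change of −0.06 (SE 0.125). Igf1, the growth factor, had 32.8, 36.5, 34.2 and 29.1 CPM in the Ager-deleted mice and 32.5, 38.5, 34.9 and 53.5 CPM in the controls. Control E6732 stood apart and the other 3 controls lay close to the Ager-deleted mice.

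Igf1 had the smallest p after Lilrb4a (log2 fold change −0.27, SE 0.144; exact test, p = 0.0945, adjusted p = 1). Without E6732 the log2 fold change was −0.09. Igf1 is also a product of the liver, and the mean log2(CPM + 1) of 6 liver markers reached 6.53 in E6732, whereas the other 7 mice had 2.41 to 2.77; their part in the Igf1 value was not tested. Dkk2, a secreted inhibitor of Wnt signalling, had 1.499, 0.782, 1.27 and 1.16 CPM in the Ager-deleted mice and 1.04, 1.82, 0.9752 and 1.87 CPM in the controls. It was the lowest of the 36 genes, with 29 to 77 counts per mouse, and its interval was wide (−0.90 to 0.34). The lectin Lgals3 had a log2 fold change of −0.08.

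The last 4 genes, the actin-capping gene Capg, Rai14, Baiap2l2 and Glipr1, had log2 fold changes of 0.05, −0.01, 0.07 and 0.04. Capg, at 43.6 to 76.3 CPM in the Ager-deleted mice and 50.5 to 60.7 CPM in the controls, was the most counted.

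Within the Ager-deleted mice many DAM genes shared an order of mice. E5231 was the highest Ager-deleted mouse for 27 of the 36 genes, against 27.6% of all genes, and E5248 the lowest for 22, against 29.5% of all genes. Both E5231 and E1776 were above both E5568 and E5248 for 26 of the 36 genes and for 20.6% of all genes. All 4 controls lay inside the range of the Ager-deleted mice for 20 of the 36 genes and for 31.4% of all genes. The median SD of log2(CPM + 1) over the DAM genes was 0.293 in the Ager-deleted mice and 0.171 in the controls, against 0.137 and 0.106 over all genes. This order of mice was noticed in the data and is a description.

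**Figure D3:**
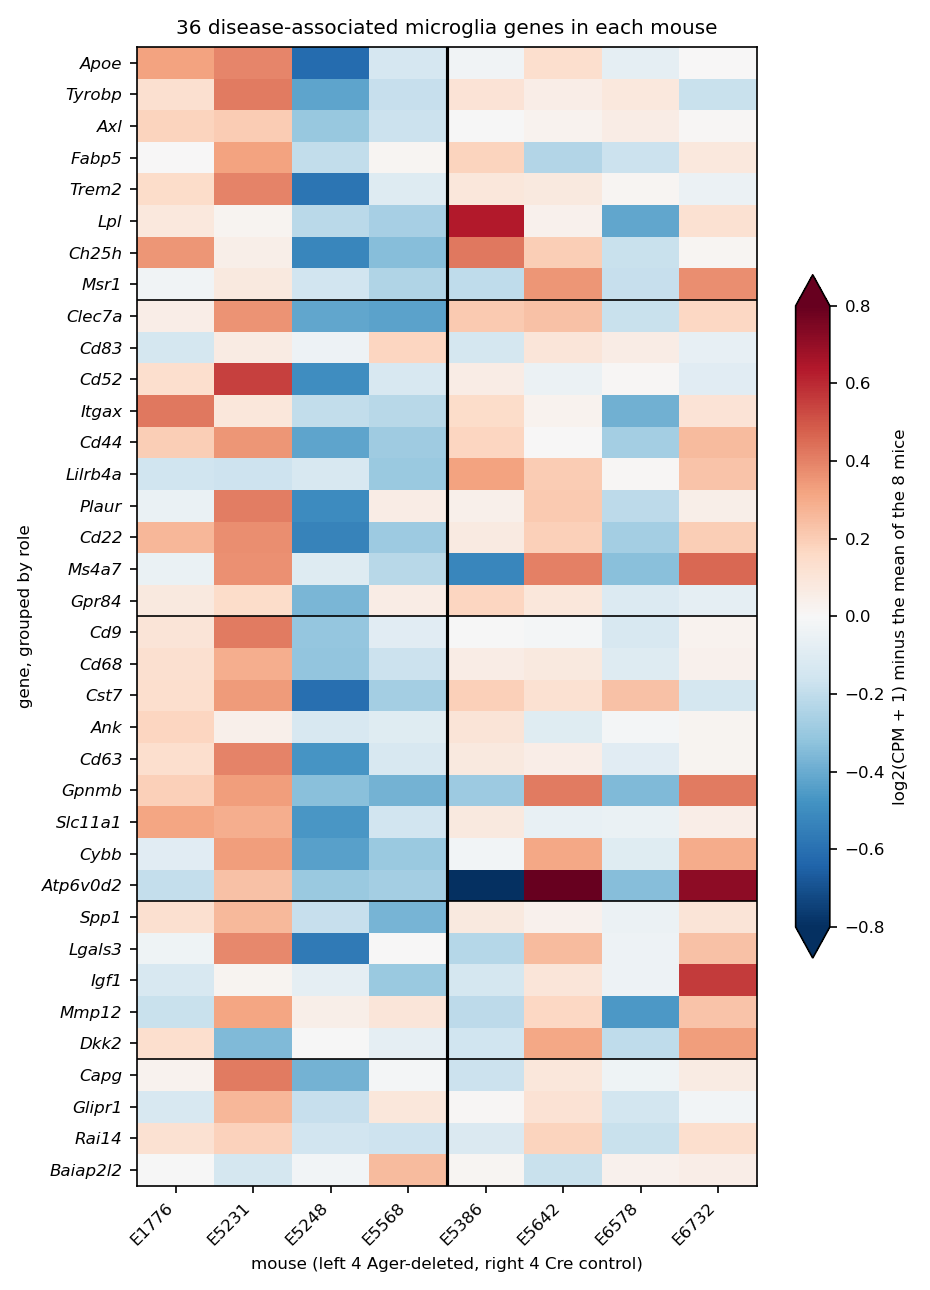
Each cell is the log2(CPM + 1) of a gene (rows, in their 5 roles) in a mouse (columns, with 4 Ager-deleted on the left and 4 Cre control on the right) minus the mean of the 8 mice, with the colour scale cut at ±0.8. E5231 is mostly red and E5248 mostly blue within the Ager-deleted mice, and E5642 and E6732 are both red for Gpnmb, Atp6v0d2, Ms4a7 and Msr1.

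In the controls another order was noticed in the data, and it too is a description. E5642 and E6732 were both above E5386 and E6578 for 14 of the 36 genes, against 15.3% of all genes. These were Apoe, Atp6v0d2, Capg, Cd22, Cybb, Dkk2, Gpnmb, Igf1, Lgals3, Mmp12, Ms4a7, Msr1, Plaur and Rai14. Trem2 and Tyrobp were not among them, and neither were Clec7a, Itgax, Cst7, Lpl and Spp1. E6578 was the lowest control for 20 of the 36 genes, against 27.5% of all genes. Nothing in the labels sets E5642 and E6732 apart. The skeletal muscle markers were high in E5386 and E5642, 1 mouse of each pair. The 8 meningeal fibroblast markers followed this order of the controls. They summed to 651 CPM in E5642 and 636 CPM in E6732, and to 547 CPM in E6578 and 77.6 CPM in E5386. In the same order of mice, Schwann cell markers (987, 740, 930 and 96.8 CPM) and border macrophage markers (93.6, 76.4, 87.1 and 41.7 CPM) were lowest in E5386 but did not follow it. The sums of the monocyte and T cell markers also followed this order of the controls, though the monocyte sums of E5642 and E5386 were nearly equal. The order was thus not particular to the meningeal fibroblast markers. The part of these markers was not tested.

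The order of the Ager-deleted mice was shared with genes that mark all microglia, and not with them alone. The mean log2(CPM + 1) of the DAM genes was 5.75, 5.91, 5.37 and 5.53 in the Ager-deleted mice and 5.68, 5.81, 5.55 and 5.81 in the controls. For the 15 pan-microglial genes, such as Aif1, Csf1r and C1qa, it was 7.21, 7.42, 6.604 and 6.86 in the Ager-deleted mice and 7.18, 7.18, 7.05 and 7.003 in the controls. E5231 was highest and E5248 lowest in both lists. Markers of other cells also differed in this order: 8 astrocyte markers summed to 17367, 16358, 12120 and 13452 CPM in the Ager-deleted mice, higher in E1776 and E5231, whereas 8 neuron markers (4383, 3793, 5031 and 4602 CPM) and 6 Schwann cell markers (332, 396, 941 and 628 CPM) were higher in E5248 and E5568. Their part in the DAM values was not tested. For 13 homeostatic genes such as P2ry12, Tmem119 and Cx3cr1 it was 4.92, 5.14, 4.58 and 4.70 in the Ager-deleted mice and 5.03, 4.96, 5.001 and 4.84 in the controls.

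The DAM mean minus the pan-microglial mean was −1.39 ± 0.12 in the Ager-deleted mice and −1.39 ± 0.15 in the controls (SD, n = 4), on the log2 scale. The DAM mean minus the homeostatic mean was 0.80 ± 0.03 in the Ager-deleted mice, where it lay between 0.77 and 0.83, and 0.75 ± 0.19 in the controls. The controls spread to both sides of that range, with 0.55 in E6578, 0.64 in E5386, 0.86 in E5642 and 0.97 in E6732. No p is given for these means because the list was chosen with results of these data known. When the quasi-likelihood test was adjusted for the pan-microglial mean, the median log2 fold change of the DAM genes was 0.01 and none was called.

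**Figure D4:**
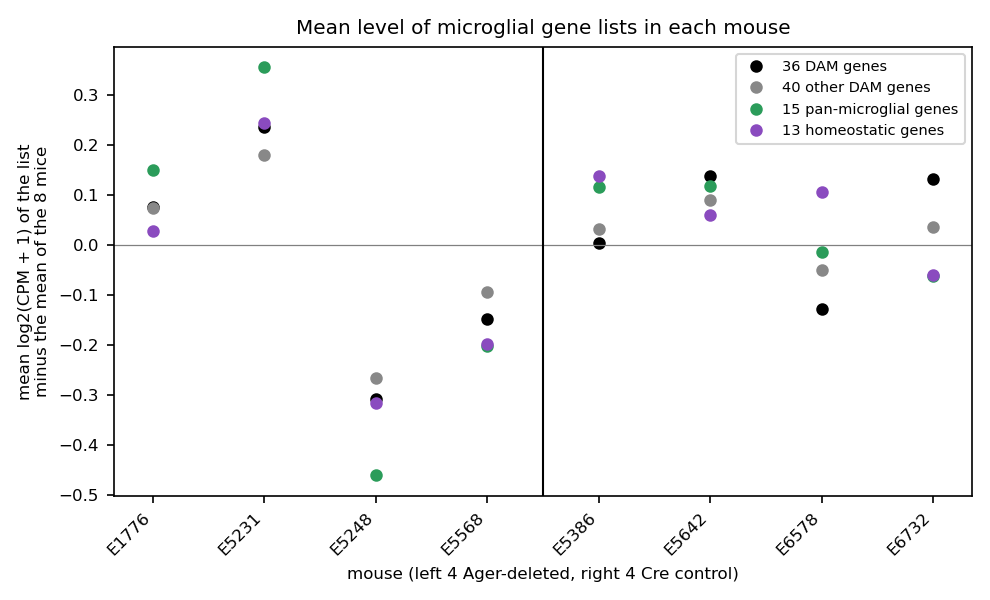
Mean log2(CPM + 1) of 4 gene lists in each mouse (x axis), shown as the difference from the mean of the 8 mice (y axis), with 4 Ager-deleted mice on the left and 4 Cre controls on the right. All 4 lists are highest in E5231 and lowest in E5248.

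No gene was called in either microglial marker list. Of the 13 homeostatic genes 11 were lower (84.6%, against 48.0% of all genes) and 2 higher in the Ager-deleted mice. Their median log2 fold change was −0.08. Of the 15 pan-microglial genes 9 were lower and 6 higher, with a median of −0.007. The homeostatic list held 2 genes at an unadjusted p under 0.05, P2ry12 and Gpr34, both lower in the Ager-deleted mice without overlap (4.26% of all genes had such a p, and 1.91% were lower without overlap), and the smallest adjusted p was 0.0848 (exact test). The pan-microglial list held 1, Cd53, also lower. These 3 were picked out after their values were seen. Blood and border cells that share DAM genes were checked by their markers: 8 neutrophil markers summed to 30.5 to 266 CPM in the Ager-deleted mice and 66.6 to 273 CPM in the controls, 6 monocyte markers to 200 to 298 and 237 to 307 CPM, and 9 border macrophage markers to 55.0 to 75.3 and 41.7 to 93.6 CPM. None of these markers was called, but most were lower in the Ager-deleted mice, against 48.0% of all genes. Lower were 8 of 8 neutrophil markers (median log2 fold change −0.41), 6 of 6 monocyte markers (−0.31) and 7 of the 8 border macrophage markers tested (−0.18). The monocyte sum of E1776 was 298 CPM, yet the mean log2(CPM + 1) of these markers, 3.06, was the lowest of the 8 mice. No marker of these lists was at 0 in all mice, and the part of these markers in the DAM values was not tested.

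The other genes of the program gave a like result. Of 40 further DAM genes, among them the cathepsins Ctsb, Ctsd, Ctsl and Ctsz, the chemokines Ccl3 and Ccl4 and Tlr2, none was called and none had an unadjusted p under 0.05 in the exact test, in either direction. Their median log2 fold change was −0.02, with 29 lower (72.5%, against 48.0% of all genes) and 11 higher. Their mean log2(CPM + 1) was highest in E5231 (7.09) and lowest in E5248 (6.64), as for the 36 DAM genes. How far the count of lower genes rests on single mice was not tested for this list. The smallest p belonged to Syngr1, a vesicle protein, with 330 ± 18.9 CPM in the Ager-deleted mice and 298 ± 23.5 CPM in the controls (SD, n = 4; edgeR exact test, p = 0.115, adjusted p = 1). Gnas and Fabp3 came next, with log2 fold changes of 0.13 and −0.28.

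Of 28 genes of TREM2 signalling and DAM regulation, none was called and none had an unadjusted p under 0.05 in the exact test, and 2 (7.14%) did in the quasi-likelihood test, against 6.71% of all genes. The median log2 fold change was −0.04, with 16 lower (57.1%, against 48.0% of all genes) and 12 higher. Adam10, the sheddase that releases the TREM2 ectodomain, had 108 ± 10.23 CPM in the Ager-deleted mice and 122 ± 7.59 CPM in the controls (SD, n = 4; edgeR exact test, p = 0.0539, adjusted p = 1), and the mice overlapped. Mitf, a transcription factor of lysosomal genes, had 17.5, 17.4, 17.9 and 16.2 CPM in the Ager-deleted mice and 18.3, 19.4, 18.8 and 20.9 CPM in the controls. All 4 Ager-deleted mice were below all controls, at a log2 fold change of −0.17 (SE 0.0717; edgeR exact test, p = 0.12, adjusted p = 1). Malt1, a scaffold downstream of CARD9, was the other gene of the 28 without overlap (1.91% of all genes were lower without overlap and 3.88% did not overlap in either direction), also lower, and was picked out after its values were seen. Pparg, a lipid-activated receptor also high in fat, stood at 3.97 CPM in E5386, whereas the other 7 mice had 1.44 to 1.95 CPM.

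Per kilobase of exon the DAM genes covered a wide range of levels. Apoe was highest, at 3249 ± 966 CPM per kb in the Ager-deleted mice and 3176 ± 202 in the controls (SD, n = 4), followed by Spp1 at 264 ± 51.6 and 276 ± 12.4 CPM per kb and Tyrobp at 253 ± 64.5 and 254 ± 22.8 CPM per kb. Clec7a had 38.4 ± 10.5 and 43.7 ± 5.48 CPM per kb, Trem2 28.5 ± 7.89 and 29.0 ± 1.26, and Itgax 18.0 ± 3.94 and 17.2 ± 2.74. Dkk2 was lowest, at 0.318 ± 0.0807 and 0.385 ± 0.131 CPM per kb. Of the 35 neighbouring pairs in this order, 20 differed by less than the larger of their SDs over the 8 mice, and in 3 pairs all 8 mice of one gene were above all 8 of the next: Apoe over Spp1, Tyrobp over Cd9, and Msr1 over Baiap2l2.

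**Figure D5:**
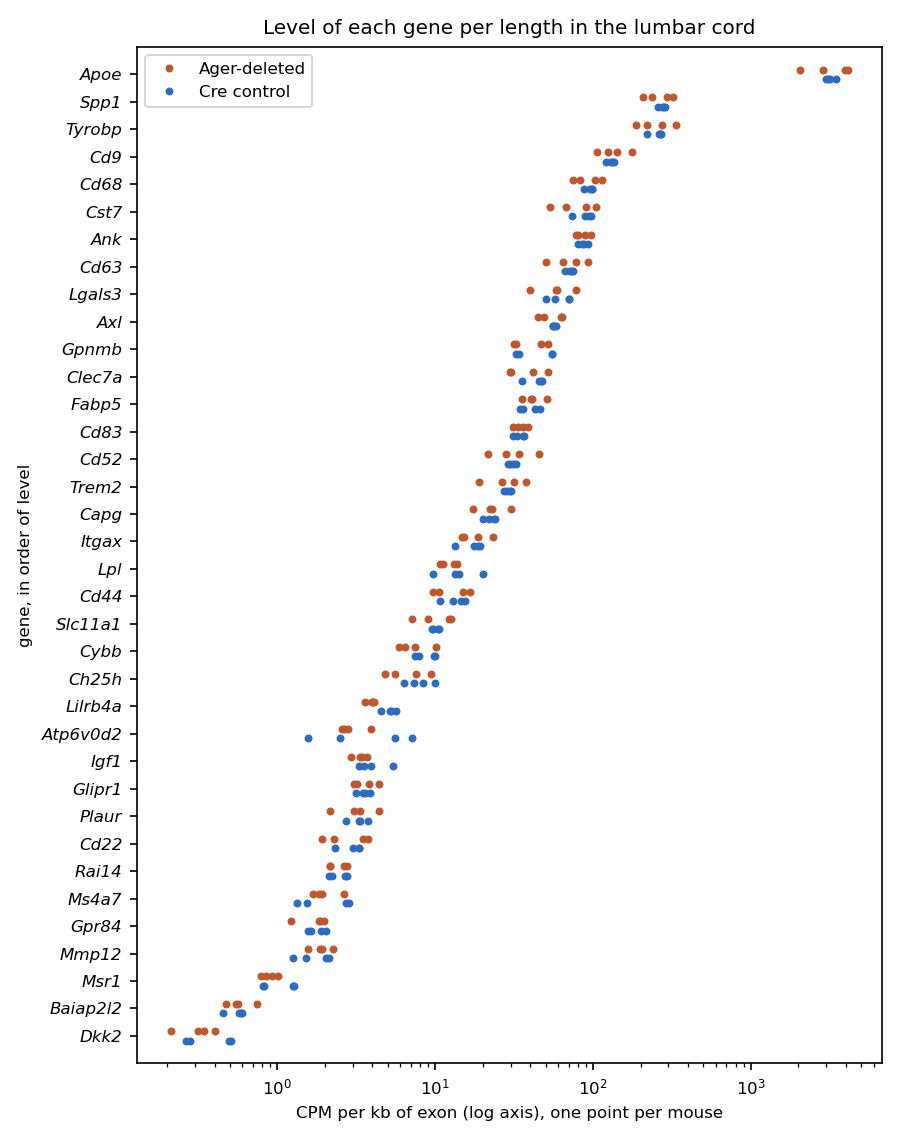
CPM per kb of exon (x axis, log scale) of the 36 genes (y axis, in order of their level in the controls), with 1 point per mouse and the genotypes in separate colours. Apoe lies above all others, and the points of the Ager-deleted mice spread more widely than those of the controls for genes such as Apoe, Trem2 and Axl.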

How the data were processed

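Lumbar cord RNA of 8 mice was sequenced after polyA selection with a stranded kit. The authors trimmed reads (Trimmomatic 0.36), aligned them to mm10 (STAR 2.7.3a) and deposited raw counts per gene of GENCODE M25 (featureCounts, Subread 1.6.3). The strand setting of the counting was not given in the sources used here. The authors also deposited a table on the log2 scale (TMM-normalized CPM); recomputed from the counts of the same 19470 genes they were within 4.78e-06, and they served only as that check.

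Counts were filtered with filterByExpr (minimum 10 counts), TMM-normalized and tested with the exact test of edgeR 4.0.16 in R 4.3.3, with dispersions from estimateDisp and no covariates. Adjusted p are Benjamini-Hochberg values over all 19470 genes, with a threshold of 0.05. Log2 fold changes are Ager-deleted over Cre control. SEs and 95% intervals are from the quasi-likelihood test. CPM per mouse were compared by exact two-sided permutation of log2(CPM + 1) over 70 assignments. A count of 3 equals 0.0744 to 0.0963 CPM and covers counting error only. Mice were grouped by the genotype in the labels. The scripts were tested on simulated data.

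The members and lists were chosen with earlier results of these data known. Per-mouse values are given for members called, with p under 0.05, without overlap, or with the 5 smallest p or 3 largest absolute fold changes. They are also given for Trem2, Tyrobp, Apoe, Clec7a, Itgax, Cst7, Lpl, Spp1, Gpnmb, Igf1 and Cd68. Of the further DAM genes and the TREM2 signalling genes, the 3 with the smallest p are named. Their values are given per mouse, as means, by range or as log2 fold changes. Other members are given by range or log2 fold change, and a gene named outside the rule is said to be so. Positions and exon lengths are from GENCODE M21 (GRCm38), where all 36 symbols matched once. Alternatives were RLE or library-size scaling, other filters, the quasi-likelihood test, common and tagwise dispersions, DESeq2 1.42.0, marker covariates, other pseudocounts, each mouse left out, and both muscle-marked controls left out. Adding up the 2 Lilrb4 paralogs and leaving out E5231 and E5248 were chosen after seeing the data.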

Additional observations from a re-analysis of the deposited data

Results flagged for a closer look

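In 76 groups of 4 mice (each gene or list named in each genotype), 2 values stood far from the other 3 mice by Dixon's ratio of gap to range; chance flags about 1 in 20 groups. Clec7a in Cre control E6578 was 93.9 CPM, against 119 to 125 CPM in the other 3 controls. Baiap2l2, a gene with 40 to 78 counts per mouse, was 1.24 CPM in Cre control E5642, against 1.56 to 1.63 CPM in the other 3 controls.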

How the results depend on the processing

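No paired analysis was possible because the labels name mice by ID and give the genotypes no shared replicate numbers. Across the alternatives the number of DAM genes called was 0, except for 1, Lilrb4a, in DESeq2 and, among the fits without 1 mouse (0 to 1), without control E6578. The count over all genes was 14 in the exact test, 1 in the quasi-likelihood test, 78 with common and tagwise dispersions, 27 in DESeq2, 67 without controls E5386 and E5642, 1 with the pan-microglial mean and 1 with the skeletal muscle mean as a covariate, 8 without E5231 and E5248, and 3 to 98 without 1 mouse. The cause was not tested. The median of the DAM genes ranged from −0.16 (without E5231) to 0.06 (without E5248), and the number lower from 32 to 13 in those 2 fits. Without E5386 the adjusted p of Ager was 0.0442 (log2 fold changes −0.94 to −0.69 without 1 mouse). The log2 fold changes of Lilrb4a stayed between −0.46 and −0.32.

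Some log2 fold changes changed sign, that of Lpl (−0.23 with all mice) among them. By library size alone Tyrobp was 0.022 and Cd68 0.0073, and without a filter Tyrobp was 0.00084. Without controls E5386 and E5642, Lpl was 0.026, Trem2 0.018, Tyrobp 0.053 and Cd68 0.029. With the pan-microglial covariate Trem2 was 0.019, Tyrobp 0.043 and Cd68 0.021. With the skeletal muscle covariate Lpl was 0.027, Trem2 0.0065, Tyrobp 0.034 and Cd68 0.028. Without E5231 and E5248 Trem2 was 0.00045. Without 1 mouse Apoe ranged from −0.10 to 0.20, Cd68 from −0.13 to 0.076, Gpnmb from −0.25 to 0.018, Itgax from −0.092 to 0.14, Spp1 from −0.17 to 0.037, Trem2 from −0.18 to 0.13 and Tyrobp from −0.17 to 0.12. Atp6v0d2, Clec7a, Cst7, Cybb, Dkk2, Igf1 and Lilrb4a were lower in the Ager-deleted mice in every fit. With 4 mice per genotype, differences that lie inside a gene's own 95% interval cannot be told from 0 where that interval holds 0, which it did for all of the 36 genes but Lilrb4a.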
